A study of Mus musculus with 6 samples.

Results

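Genes of the vacuolar proton pump (V-ATPase) and of the lysosome were followed in MC3T3-E1 cells, a clonal mouse calvarial pre-osteoblast line, after 5 days with or without ascorbic acid (AA). The genes were taken from a fixed list of 34, with cathepsins left out. For each gene the probe set with the highest mean signal over the 6 arrays was used, among those annotated to that gene alone. In this way 32 of the 34 genes were measured, of 18193 genes on the array, and Atp6v0c and Cd63 were not analysed here. The study had 3 control cultures, left untreated, and 3 AA cultures, given 50 µg of AA by the labels, which state no volume. All 6 cultures were the same line in the same serum-containing medium, grown in 6-well plates, so they speak for 1 clonal line. Each RNA went to its own Affymetrix mouse whole-genome array. The labels do not say whether replicates were separate experiments, so p-values measure the spread between these samples, which may be technical. RNA was taken from whole cultures, in which fewer cells of a type and less RNA per cell cannot be told apart.

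Lysosomes are the acidic compartments in which cells break down proteins, glycans and lipids. Their low pH is set by the V-ATPase, whose cytosolic V1 sector hydrolyses ATP and whose membrane V0 sector carries the protons. The hydrolases are sorted to the lysosome largely by a mannose 6-phosphate tag, and many lysosomal genes carry an E-box, CACGTG, that the transcription factor TFEB can bind. In bone the compartment is best known from the osteoclast, which acidifies the resorption pit with V-ATPase and secretes the phosphatase encoded by Acp5.

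The E-box stands in the promoters of a part of these genes, and upstream bases are shown for those that hold it wholly before the start. RefSeq windows from GRCm38.p6, which run from 250 bases before to 50 after a transcription start, were used for 28 of the 34 genes, in 35 windows. None was used for Atp6v0a2, Atp6v1b2, Atp6v1c1, Atp6v1g1, Atp6v1h and Npc1. Members' windows on 1 chromosome were left out of this search, though all windows kept theirs. A gene without a window here may thus have one that was not read. The letters CACGTG, which read the same on both strands, occurred in windows of 9 genes: Atp6v0b, Atp6v0d1, Atp6v0e, Atp6v1a, Gaa, Glb1, Lamp1, Mcoln1 and Naglu. That is 25.7% of the members' windows, against 7.15% of all 32851 windows. Lamp1, Mcoln1 and Atp6v0b held more than 1 copy, as did 0.594% of all windows. The longer form TCACGTGA, which contains CACGTG, occurred in 4 genes, Atp6v0d1, Atp6v0e, Atp6v1a and Mcoln1, or 11.4% of the members' windows against 0.974% of all. In Atp6v0d1 the letters lie across the start and in Atp6v0e after it, so these are not printed. The upstream bases of the other 7 genes follow on the gene's own strand, 5′ to 3′, with CACGTG in capitals. For the first 5 the last base is the one just before the start, and for Atp6v1a and Gaa the bases run from 160 to 101 before it.
Lamp1 (chr8:13159081-13159160, plus strand): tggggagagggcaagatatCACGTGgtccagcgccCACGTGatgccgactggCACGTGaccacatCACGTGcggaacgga
Mcoln1 (chr8:3500439-3500518, plus strand): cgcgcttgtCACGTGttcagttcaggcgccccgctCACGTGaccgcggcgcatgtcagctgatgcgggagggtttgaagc
Atp6v0b (chr4:117887330-117887409, minus strand): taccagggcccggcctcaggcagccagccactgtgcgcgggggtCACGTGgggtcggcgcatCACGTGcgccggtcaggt
Glb1 (chr9:114400998-114401077, plus strand): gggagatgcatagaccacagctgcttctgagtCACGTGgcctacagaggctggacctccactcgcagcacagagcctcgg
Naglu (chr11:101070014-101070093, plus strand): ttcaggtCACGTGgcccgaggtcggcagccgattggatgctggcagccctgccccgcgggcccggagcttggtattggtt
Atp6v1a (chr16:44139360-44139419, minus strand): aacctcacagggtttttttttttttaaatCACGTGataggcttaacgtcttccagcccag
Gaa (chr11:119267803-119267862, plus strand): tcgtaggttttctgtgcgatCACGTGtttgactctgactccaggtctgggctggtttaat

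By their brightest probe sets, 0 of the 32 measured genes were higher and 0 lower in AA-treated than in control cells at an adjusted p under 0.05 from limma. Over all 18193 genes 4.07% were higher and 3.85% lower by the same rule. At an unadjusted limma p under 0.05, 3 members were higher (Atp6v0b, Atp6v0e and Npc1) and 3 lower (Lamp1, Lamp2 and Psap), against 10.7% and 12.9% of all genes. The methods' t-test, paired by replicate, also gave 0 in either direction, both after Benjamini-Hochberg adjustment and at a p under 0.01 with a fold of at least 1.5. Of the 32 log2 fold changes 16 lay above 0 and 16 below, with a median of 0.0019, while the median over all genes was -0.021. The largest was that of Atp6v0b, 0.40, and the smallest that of Lamp1, -0.24. In size the members' median log2 fold change was 0.12, and that of all genes 0.28. The normalized values of the groups did not overlap for 5 members that were higher in AA and for 5 that were lower, against 13.0% and 15.1% of all genes. The former were Atp6v0a2, Atp6v0d1, Atp6v0e, Atp6v1d and Npc1, and the latter Atp6v1a, Atp6v1c1, Lamp1, Lamp2 and Psap. On the signals as deposited the groups of Atp6v1c1, Lamp1, Lamp2 and Psap overlapped, while those of Tpp1 (AA above) and of Atp6v1b2 and Atp6v1h (AA below) did not.

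A p that misses the threshold does not show that a gene was unchanged, so the 95% intervals of the fold changes were read as well. For 29 of the 32 genes the interval lay within a 1.5-fold change in either direction, as it did for 36.7% of all genes. Dim probe sets have wide intervals, and 26 of the members were above the upper quartile of signal on all 6 arrays. Among these 26 the interval lay within 1.5-fold for 25, against 80.5% of the 6545 genes above that quartile on all 6 arrays. Many of the 26 lay far above the quartile, so the comparison was not matched in brightness. The 3 genes whose interval reached further were Atp6v0b, Npc1 and Acp5. With an untrended prior in limma, the intervals of 17 of the 32 stayed within 1.5-fold.

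**Figure D1:**
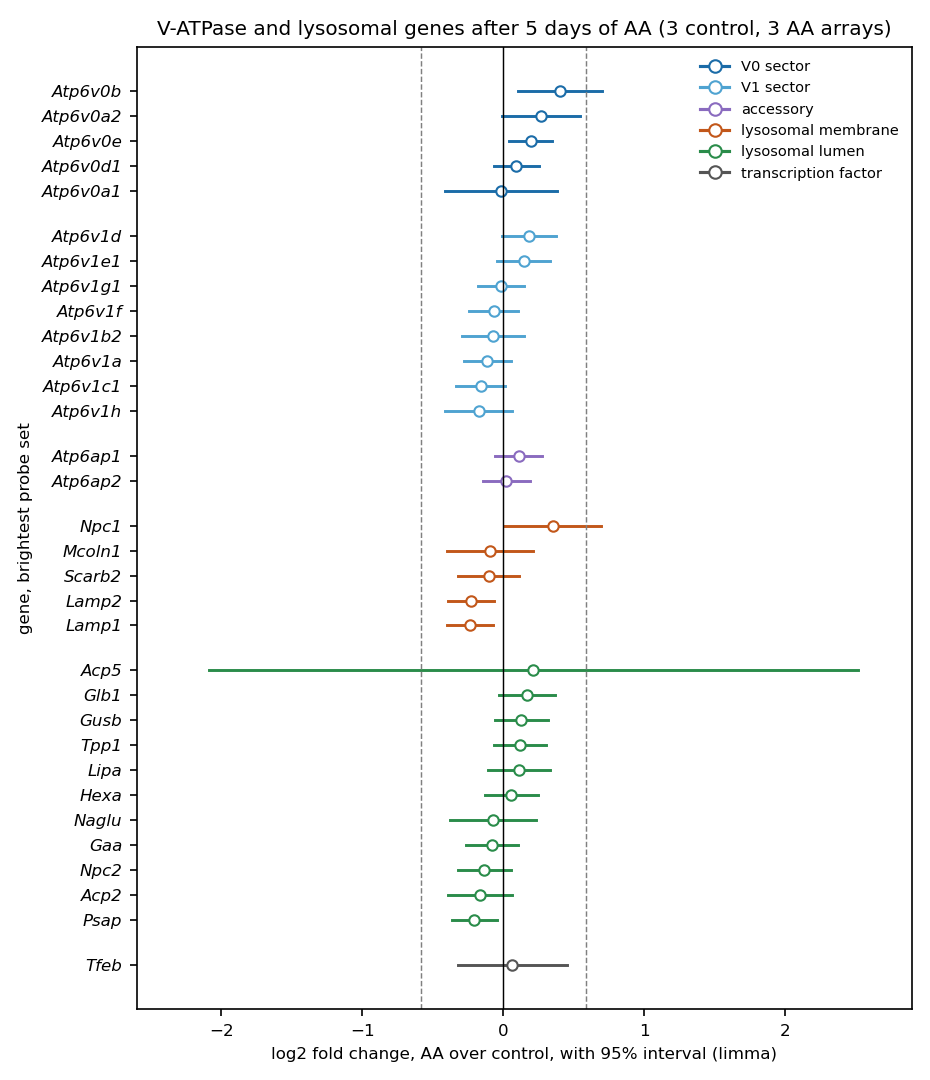
Log2 fold change, AA over control, of the brightest probe set of each of the 32 measured genes (open circles) with its 95% interval from limma (lines), on 3 control and 3 AA arrays and coloured by role. Dashed lines mark a 1.5-fold change. All circles lie between -0.24 and 0.40, and only the intervals of Atp6v0b, Npc1 and Acp5 cross a dashed line.

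The membrane V0 sector was read by 5 genes, and none passed. Atp6v0b, a proteolipid subunit of the proton-carrying ring, had signals of 658, 541 and 670 on the control arrays of replicates 1 to 3 and of 1035, 794 and 653 on the AA arrays. The groups overlapped, since AA replicate 3 lay below the control arrays of replicates 1 and 3. The log2 fold change was 0.40 (standard error, SE, 0.13 and 95% interval 0.10 to 0.70, adjusted p = 0.142 from limma). Without replicate 3 it was 0.61 and passed (adjusted p = 0.0042), whereas it was 0.27 without replicate 1 (adjusted p = 0.377) and 0.23 with AA replicate 1 left out (adjusted p = 0.477). Atp6v0e, a small subunit of the membrane sector, had signals of 3106, 2839 and 2981 in control and of 3933, 3569 and 3229 in AA-treated cells. Each AA array was above each control array, with a log2 fold change of 0.19 (SE 0.07, adjusted p = 0.168 from limma). Atp6v0d1, which links the ring to the central stalk, had signals of 1830, 1788 and 1832 in control (mean 1817 ± 24.8, SD, n = 3) and of 2087, 2086 and 1860 in AA-treated cells (mean 2011 ± 131). Its groups did not overlap either, though the difference was 0.09 on the log2 scale (interval -0.07 to 0.25). The a subunits form the proton path beside the ring, and their isoforms differ in the membranes they serve. Atp6v0a2 read 164, 150 and 168 in control and 214, 186 and 170 in AA-treated cells, without overlap but with AA replicate 3 close to the highest control array. Its log2 fold change was 0.27 (interval -0.01 to 0.54, adjusted p = 0.297 from limma). Atp6v0a1 read 103, 78.3 and 125 in control and 101, 97.9 and 93.8 in AA-treated cells, so the AA arrays lay inside the control range, at -0.02 on the log2 scale (interval -0.42 to 0.38).

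The cytosolic V1 sector was read by 8 genes, none of which passed, and the interval of each lay within 1.5-fold. Atp6v1a encodes the catalytic A subunit. It had signals of 1024, 1025 and 1077 in control and of 971, 938 and 977 in AA-treated cells. Every AA array was below every control array, yet the log2 fold change was -0.11 (SE 0.07, interval -0.28 to 0.05, adjusted p = 0.481 from limma). The dimmer Atp6v1a probe set went the other way, at 0.23 (interval 0.004 to 0.45, adjusted p = 0.267 from limma). Atp6v1b2, the B subunit that forms the ATPase head with A, had a log2 fold change of -0.07 (interval -0.29 to 0.15). Of the rotor subunits, Atp6v1d read 645, 669 and 624 in control and 797, 697 and 695 in AA-treated cells. This was the V1 gene with the highest log2 fold change, 0.18 (interval -0.01 to 0.37), and AA replicate 1 stood well above the other AA arrays. Atp6v1f, also of the rotor, was at -0.07 (interval -0.24 to 0.11). Among the peripheral stalk subunits, Atp6v1e1 was at 0.14 (interval -0.04 to 0.33) and Atp6v1g1 at -0.02 (interval -0.18 to 0.14) on the log2 scale. Atp6v1c1 and Atp6v1h take part in joining the sectors and in their control. Atp6v1c1 read 1081, 1150 and 1303 in control and 1031, 1054 and 1082 in AA-treated cells, a log2 fold change of -0.16 (interval -0.34 to 0.01). Atp6v1h read 614, 599 and 816 in control and 559, 596 and 594 in AA-treated cells, a log2 fold change of -0.17 (interval -0.41 to 0.06). In both genes control replicate 3 was the highest array, and without replicate 3 their log2 fold changes were -0.11 and -0.038.

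By sector, 4 of the 5 V0 genes and 2 of the 8 V1 genes had a log2 fold change above 0, with medians of 0.19 and -0.07. On the signals as deposited 4 of 5 and 3 of 8 were above 0, and after median centring 4 of 5 and 2 of 8. The difference between the sectors was not tested. The accessory proteins Atp6ap1 and Atp6ap2, which accompany the pump through assembly, had log2 fold changes of 0.11 (interval -0.06 to 0.28) and 0.02 (interval -0.15 to 0.19). Atp6ap2 was just below 0 after median centring.

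Among lysosomal membrane proteins, the abundant glycoproteins Lamp1 and Lamp2 were lower on average in AA-treated cells by their brightest probe sets and did not pass. The Lamp1 signals were 3335, 3155 and 3448 in control and 3201, 3003 and 2703 in AA-treated cells. As deposited the groups overlapped through AA replicate 1 alone, and after normalization they did not overlap. The log2 fold change was -0.24 (SE 0.07, interval -0.40 to -0.07, adjusted p = 0.117 from limma), below 0 in all 3 pairs. Lamp1 is the member with 4 E-boxes in the sequence printed above. For Lamp2 the brightest probe set read 3089, 2905 and 3170 in control and 2974, 2678 and 2561 in AA-treated cells. The groups overlapped, again through AA replicate 1 alone. Its log2 fold change was -0.23 (SE 0.07, interval -0.39 to -0.07, adjusted p = 0.120 from limma). With testing limited to the brighter probe sets, those above the median, these Lamp1 and Lamp2 probe sets passed with adjusted p of 0.0415 and 0.0428 from limma. The other Lamp2 probe sets went the other way, at 0.16, 0.08 and 0.43 on the log2 scale. Scarb2, the receptor that brings glucocerebrosidase to the lysosome, had a log2 fold change of -0.10 (interval -0.32 to 0.11). The calcium channel gene Mcoln1 was at -0.10 (interval -0.40 to 0.21). Npc1, which exports cholesterol from the lysosome, had the highest log2 fold change of this group. Its signals were 64.4, 56.7 and 58.7 in control and 76.1, 73.1 and 77.9 in AA-treated cells. The groups did not overlap, and the log2 fold change was 0.35 (SE 0.15, interval 0.01 to 0.70, adjusted p = 0.260 from limma).

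The lysosomal lumen was represented by 11 genes, and none passed by the brightest probe set. Psap, the precursor of the saposins that help degrade sphingolipids, had signals of 2790, 2548 and 2546 in control and of 2682, 2355 and 2110 in AA-treated cells. As deposited the groups overlapped and after normalization they did not, with AA lower in all 3 pairs and a log2 fold change of -0.21 (SE 0.07, interval -0.36 to -0.05, adjusted p = 0.155 from limma). Log2 fold changes of the glycosidases lay close to 0 on the brightest probe sets. Hexa, the alpha subunit of beta-hexosaminidase, had a log2 fold change of 0.06 (interval -0.13 to 0.25) and Glb1, beta-galactosidase, one of 0.17 (interval -0.03 to 0.37). The value for Gaa, acid alpha-glucosidase, was -0.08 (interval -0.26 to 0.10), and that for Naglu, which acts on heparan sulfate, -0.07 (interval -0.38 to 0.23). Npc2, which hands cholesterol to Npc1, was at -0.13 (interval -0.32 to 0.05), opposite in sign to Npc1. The acid lipase Lipa was at 0.11 (interval -0.11 to 0.33) and the peptidase Tpp1 at 0.12 (interval -0.07 to 0.30). Acp2, the lysosomal acid phosphatase, was at -0.16 (interval -0.39 to 0.06).

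Gusb, beta-glucuronidase, gave the largest called difference among the members' probe sets, but not on its brightest one. The brightest, 1448124_at, had signals of 666, 597 and 575 in control and of 675, 640 and 662 in AA-treated cells, with a log2 fold change of 0.13 (SE 0.08, interval -0.06 to 0.31, adjusted p = 0.475 from limma). The other, 1430332_a_at, had signals of 134, 113 and 110 in control and of 210, 191 and 190 in AA-treated cells. There every AA array stood above every control array, with a rise of 0.76 in log2 signal (SE 0.11, interval 0.51 to 1.01, adjusted p = 0.00679 from limma). The intervals of these Gusb probe sets do not overlap. Without replicate 2 the call on 1430332_a_at was lost (adjusted p = 0.0581), as it was with the untrended prior (0.388) and by the methods' t-test (0.263). With the mean of both probe sets Gusb passed, at 0.44 (adjusted p = 0.0275).

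Tfeb, the transcription factor of lysosomal genes, was read by 1 probe set with low signals. They were 51.0, 63.4 and 71.7 in control and 62.9, 64.1 and 64.4 in AA-treated cells, so the AA values lay inside the control range. The log2 fold change was 0.06 (SE 0.17, interval -0.32 to 0.45, adjusted p = 0.904 from limma), and after median centring it was just below 0. Set by the E-box, 4 of the 9 measured genes with CACGTG in the window had a log2 fold change above 0, with a median of -0.07 and a range of -0.24 to 0.40. Of the 17 measured genes with a window and no CACGTG, 10 were above 0, with a median of 0.06. Acp5, the tartrate-resistant phosphatase by which osteoclasts are stained, was at the bottom of the signal range. It read 2.78, 0.975 and 1.39 in control and 1.12, 5.92 and 0.966 in AA-treated cells, below the median of all probe sets on each array. Its log2 fold change was 0.21 with an interval of -2.09 to 2.52, so these arrays set no useful limit on it.

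**Figure D2:**
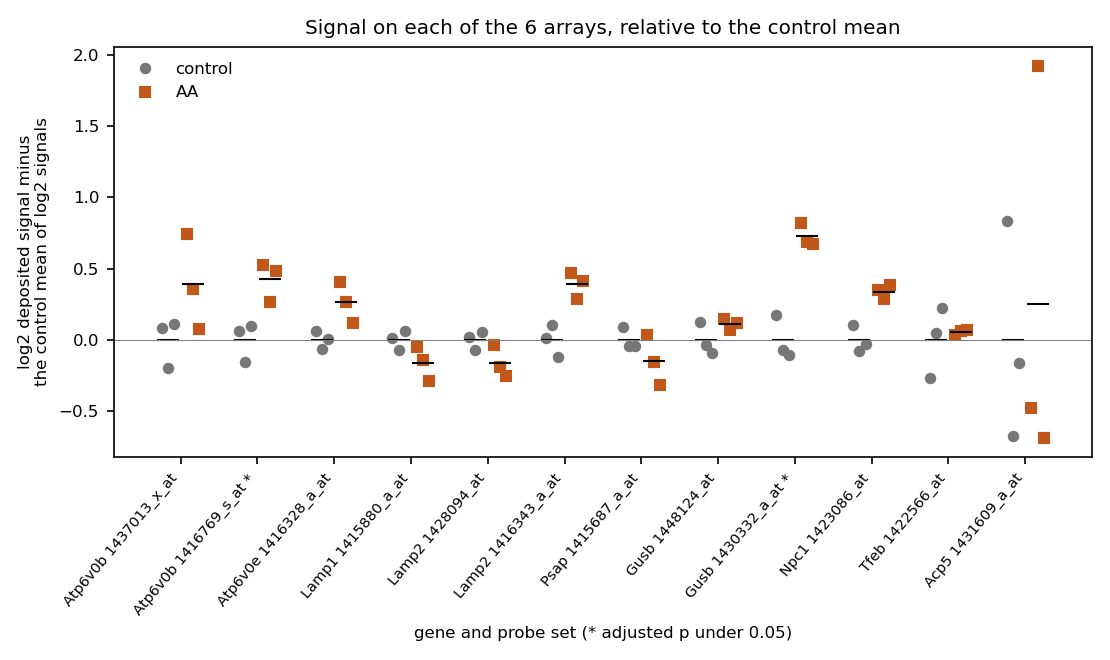
Log2 deposited signal of 12 probe sets on each array, minus the mean of the 3 control log2 signals of that probe set. Circles are control and squares AA cultures, in the order of replicates 1 to 3, short lines are group means, and an asterisk marks an adjusted p under 0.05. The starred Gusb and Atp6v0b probe sets have all AA squares above all control circles, whereas the squares for Tfeb lie within the spread of its circles.

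Of the 32 genes, 21 were read by more than 1 probe set, which added 41 probe sets to the 32 brightest. Of all 73 probe sets 2 were higher, those of Gusb and of Atp6v0b, and 0 were lower, against 2.71% and 2.50% of all 45037 probe sets. Counted as genes, 2 of 32 had any probe set that was higher, against 4.75% of all genes. The called Atp6v0b probe set, 1416769_s_at, had signals of 230, 198 and 235 in control and of 317, 264 and 308 in AA-treated cells. It rose by 0.46 on the log2 scale (SE 0.09, interval 0.25 to 0.68, adjusted p = 0.0286 from limma). The last one for Atp6v0b was at 0.38 (adjusted p = 0.154), so all 3 gave nearly the same average change. Between the replicate 3 arrays they differed, at -0.03 for the brightest, 0.41 for the called and 0.10 for the last probe set. The call was not firm. Of 14 alternative fits with the trended prior that kept single probe sets, it held in 3. It was lost without the replicate block, after median centring, with 50 added to the signals and without replicate 1 or 2. It was also lost with any single array left out. Over the 14 fits the log2 fold change ran from 0.37 to 0.54.

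The probe sets of 12 genes differed among themselves in sign. In Lamp2, which has transcripts with alternative last exons, the other probe sets had log2 fold changes of 0.16, 0.08 and 0.43. The last of these, 1416343_a_at, read 255, 272 and 233 in control and 350, 308 and 337 in AA-treated cells. All AA values were above all control values there (SE 0.10, interval 0.19 to 0.66, adjusted p = 0.0532 from limma), while the brightest Lamp2 probe set had an interval wholly below 0. In Atp6v1e1 the probe set 1449711_at read 36.1, 138 and 112 in control and 30.2, 50.4 and 23.6 in AA-treated cells. Control replicate 1 was as low as the AA arrays, and the log2 fold change was -1.33 (SE 0.33, adjusted p = 0.0615 from limma). The other 2 dimmer Atp6v1e1 probe sets were at 0.56 and -0.66 on the log2 scale. The highest value of all, 1.46, came from an Atp6v0a1 probe set with signals of 0.705 to 7.11 (adjusted p = 0.341), and its other 2 dimmer probe sets were at 0.62 and -0.13. For Atp6v0a2 the dimmer probe sets gave 0.41 and 0.49, for Atp6v1d 0.24 and 0.23, for Tpp1 0.16 and for Gaa 0.12. Those of Atp6v1a, Scarb2 and Psap gave 0.23, -0.02 and -0.05. In Acp2, Lipa and Atp6ap2, with 2 dimmer probe sets each, all were between -0.20 and 0.06. The remaining dimmer probe sets, of Atp6v1b2, Atp6v1c1, Atp6v1g1, Atp6v1h, Mcoln1 and Npc2, ran from -0.64 to 0.66, and none passed.

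**Figure D3:**
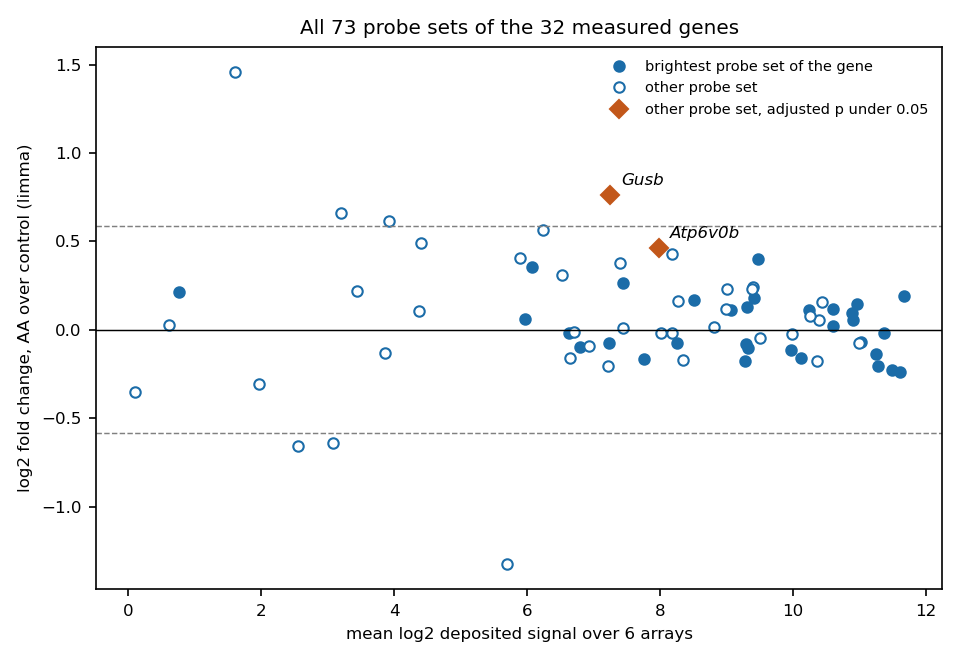
Log2 fold change, AA over control from limma, against the mean log2 deposited signal over the 6 arrays for all 73 probe sets of the 32 genes. Filled circles are the brightest probe set of each gene, open circles the others, diamonds the 2 with an adjusted p under 0.05, and dashed lines a 1.5-fold change. Values spread from -1.33 to 1.46 among dimmer probe sets and narrow toward the bright end.

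Other genes of the same compartment were taken from lists that hold no member: 119 genes, of which 110 were measured. By the brightest probe set 8 were higher and 2 lower in AA-treated cells at an adjusted p under 0.05 from limma, against the 4.07% and 3.85% of all genes. After median centring 1 was higher and 2 were lower, as was the case without replicate 2. With AA replicate 2 left out the counts were 1 and 1, and with control replicate 2 or AA replicate 1 left out 2 and 0. They were 4 and 1 without control replicate 3, 5 and 1 without AA replicate 3, and 5 and 2 without replicate 1. With control replicate 1 left out only Laptm4b and Tpcn1, described below, lost their calls, and without replicate 3 only Laptm4b did. The other V-ATPase isoforms and assembly factors had 0 calls among 15 genes. Tcirg1, the a subunit isoform of the osteoclast pump, was at 0.11 on the log2 scale (adjusted p = 0.711). Of 28 other hydrolases and activators, Ids and Ppt2 rose and Arsb fell. Ids, which removes sulfate from dermatan and heparan sulfate, went from 1839, 1641 and 1498 to 2711, 2319 and 2001 (log2 fold change 0.45, SE 0.07, adjusted p = 0.00885). Ppt2, a lysosomal thioesterase, was higher by 0.60 in log2 signal (adjusted p = 0.0175). Arsb, another sulfatase of dermatan sulfate breakdown, went from 1008, 970 and 1110 to 666, 579 and 790 (log2 fold change -0.60, SE 0.08, adjusted p = 0.00569), with no overlap between the groups. Of the 14 alternative fits with the trended prior Ids kept its call in 7, Ppt2 in 6 and Arsb in 10. All 3 lost it with AA replicate 2 left out (adjusted p = 0.161, 0.181 and 0.0721 from limma).

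Of 23 other lysosomal membrane genes, 3 rose and 1 fell. The amino acid exporter gene Slc36a1 went from 116, 126 and 117 to 216, 180 and 192, a log2 fold change of 0.74 (SE 0.12, adjusted p = 0.0115 from limma). It did not pass with the untrended prior in limma (adjusted p = 0.388) or by the methods' t-test (adjusted p = 0.345). It alone passed in each of the 14 alternative fits with the trended prior. The channel gene Tpcn1 was higher by 0.60 in log2 signal (adjusted p = 0.0324) and kept its call in 5 of these, and Laptm4b by 0.33 (adjusted p = 0.0379) and in 2. The potassium channel gene Tmem175 went from 109, 113 and 119 to 56.7, 74.6 and 56.8 (log2 fold change -0.85, SE 0.16, adjusted p = 0.0193), and it passed in 10. In mannose 6-phosphate sorting, 1 of 10 genes rose, the adaptor Gga2 (log2 fold change 0.49, adjusted p = 0.0284). Among 17 genes of the TFEB family and of mTORC1 control at the lysosome, 1 rose, the Ragulator subunit Lamtor5 (0.40, adjusted p = 0.0136). The TFEB relatives Tfe3 and Mitf did not pass, at -0.42 (adjusted p = 0.165) and 0.27 (adjusted p = 0.283). Of 17 autophagy genes, 1 rose, Wipi1 (0.47, adjusted p = 0.0326). Gga2, Lamtor5 and Wipi1 passed in 7, 11 and 6 of the 14, and all 3 lost the call without replicate 2 (adjusted p = 0.169, 0.102 and 0.0586). Median log2 fold changes of these 6 lists ran from -0.04 to 0.18, that over all 110 genes was 0.09, and that over all genes on the array was -0.021.

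**Figure D4:**
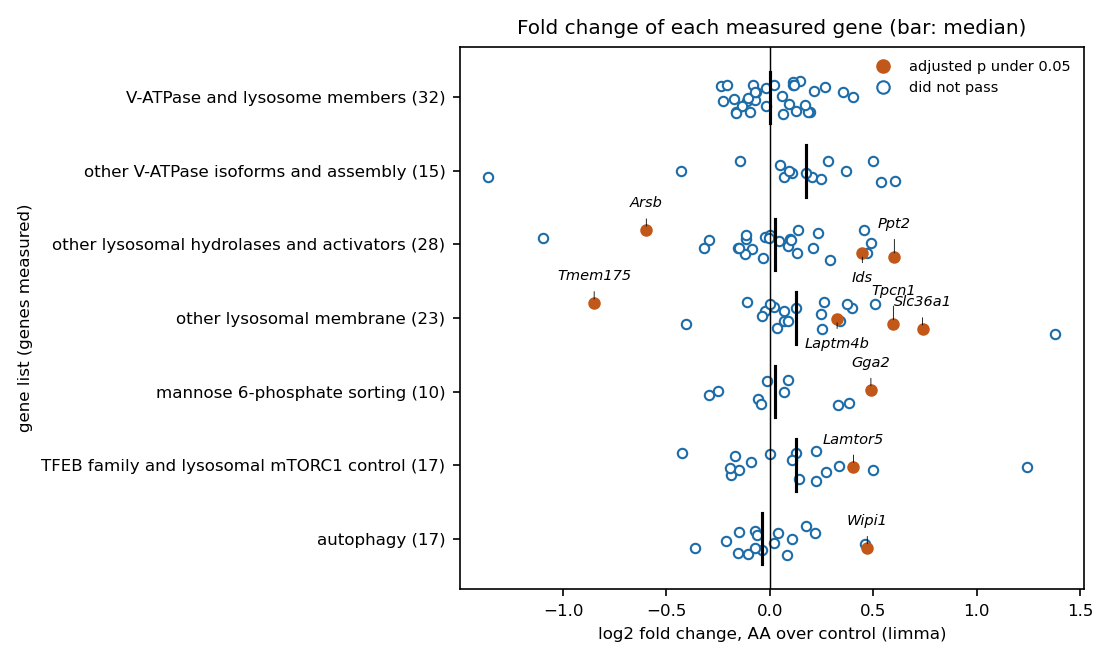
Log2 fold change, AA over control from limma, of each measured gene in 7 lists, with the number measured beside the list name, a bar at the median and a little vertical scatter for legibility. Filled points passed an adjusted p of 0.05 and are named. None of the 32 V-ATPase and lysosome members is filled, and the 10 filled points lie in 5 of the 6 other lists.

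Markers of the cells that the cultures could hold were read in the same way, by which 4.07% of all genes were higher and 3.85% lower. Of 5 measured osteoblast markers 2 rose, Alpl (log2 fold change 1.52, adjusted p = 0.000464) and Ibsp (1.53, adjusted p = 0.000549). Over all 5 markers the summed signal was 15227 to 18173 in control and 19279 to 24875 in AA-treated cells. Most of that sum came from Col1a1 and Col1a2, which did not pass, at 0.11 and 0.04 on the log2 scale. Sp7, at 0.29, did not pass either. Of 11 osteoclast markers 2 rose, Ctsk (0.78, adjusted p = 0.000897) and Nfatc1 (0.39, adjusted p = 0.0430), genes that osteoblast lineage cells also use. The sum went from between 1549 and 1675 to between 2307 and 2764, most of it Ctsk. The osteoclast genes Oscar, Calcr, Dcstamp, Ocstamp, Tnfrsf11a and Atp6v0d2 were below the array's median on all 6 arrays, as was Acp5. Of the rest of that list, Itgb3 and Tcirg1 were above the median on all 6 arrays and Mmp9 on 3, and none of these passed. The normalized groups did not overlap for 4 of the 11 that were higher and 1 that was lower, against 13.0% and 15.1% of all genes. These were Ctsk, Nfatc1, Oscar and Atp6v0d2, and Mmp9. Oscar and Atp6v0d2 did not pass, at 0.86 and 0.61 on the log2 scale (adjusted p = 0.402 and 0.568 from limma). Of 9 macrophage markers only Csf1r rose, from 23.9, 24.7 and 25.0 to 104, 74.6 and 83.6 (log2 fold change 1.81, adjusted p = 0.00168), while Ptprc, Adgre1, Cd68, Itgam and Cd53 were below the median on all arrays. Lyz2 and Cd14 were above the median on all 6 arrays and Laptm5 on 5, and none of these passed, although every AA array was above every control array for Cd14 (log2 fold change 0.42, adjusted p = 0.238). The macrophage sum ran from 464 to 558 in control and from 508 to 590 in AA-treated cells. None of 4 adipocyte markers passed (sums of 6.50 to 10.5 and of 7.50 to 17.3). Of 5 chondrocyte markers 2 rose, Col2a1 (1.18, adjusted p = 0.00352) and Hapln1 (2.56, adjusted p = 0.000658). The sums over that list were 346 to 442 in control and 639 to 740 in AA-treated cells. Sox9 was at -0.33 on the log2 scale, with every AA array below every control array, and did not pass (adjusted p = 0.283 from limma). Matn1 and Acan, at -1.01 and 1.21, were below the median on all 6 arrays and did not pass either. The part of these markers in the values of the lysosomal genes was not tested.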

How the data were processed

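Each array was deposited as linear intensity, with 1 value for every probe set. Per the labels they come from MAS5 (no version given), and they carry a trimmed mean of 150 on every array, with 2% left off at each end. The quantile normalization and GC-RMA of the study's methods are not in them. There are no detection calls, so no level is given as a bound, and the number of arrays limits the precision. Median signals were 14.9 to 17.7 on control and 16.2 to 16.9 on AA arrays, and the 3′ to 5′ Gapdh ratio was 0.791 to 0.920, highest for control replicate 3.

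Of 45101 probe sets, 64 controls were left out. Log2 signals of 45037 were quantile-normalized and fitted with limma 3.58.1 in R 4.3.3, blocking on the replicate number, since paired tests are named in the methods, and with a trended prior (2 residual and 6.18 prior degrees of freedom). Benjamini-Hochberg adjustment covered all of them. GEO's platform annotation named 34945 probe sets for 1 gene, 932 for several and 9160 for none. RefSeq's table for GRCm38.p6 changed 0 symbols, and 1 listed gene, Pqlc2, was matched through a synonym as Slc66a1. The members and lists were chosen with earlier results of these data known. Values on each array are given by rule for members that passed on any probe set and for Tfeb, Lamp1 and Acp5. Other genes shown so, like Atp6v0e, Npc1 and Csf1r, were chosen after their values were seen. So were Tcirg1, Tfe3 and Mitf, which are named though they did not pass. From the other lists up to 4 genes a direction that passed are named. Code was checked on simulated arrays. Alternatives were no block, other scalings, a pseudocount of 50, brighter probe sets alone, an untrended prior, the methods' t-test, other ways of choosing a gene's probe set, and each replicate or array left out.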

Additional observations from a re-analysis of the deposited data

How the results depend on the processing

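The count of 0 members higher and 0 lower held without the replicate block, on deposited or median-centred signals, with 50 added, with an untrended prior and by the methods' t-test. With all probe sets of a gene averaged 1 was higher (Gusb), with any probe set 2, and with each replicate or array left out 0 to 1 (Atp6v0b, without replicate 3). Among probe sets above the median 2 were lower. The members' median log2 fold change ran from -0.056 to 0.058. Members with an interval within 1.5-fold numbered 17 with the untrended prior, and 21 to 31 otherwise, alternatives that were chosen after seeing the data. Of the other lysosome genes, 5 were higher without the replicate block, 1 after median centring, 4 with 50 added, 5 with the mean of probe sets, and 0 with the untrended prior or the t-test at either threshold. With a replicate or array left out 1 to 8 were higher and 0 to 2 lower. Lower were 1 with 50 added, and 0 with the mean of probe sets, the untrended prior or the t-test at either threshold. The replicate numbers are shared by label only: deviations of same-numbered control and AA arrays correlated at 0.18, 0.025 and 0.092, and control replicate 2 correlated best with AA replicate 3 (0.051).

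The sign of some members turned, and the cause was not tested. On deposited signals Atp6v1g1 was at 0.045, and after median centring Atp6ap2 was at -0.00026 and Tfeb at -0.0012. With the mean of probe sets, log2 fold changes were 0.48 for Atp6v0a1, 0.058 for Atp6v1a, 0.0034 for Atp6v1b2, -0.32 for Atp6v1e1, 0.11 for Lamp2, 0.19 for Mcoln1 and 0.018 for Gaa. With a replicate or array left out, values ran from -1.04 to 1.06 for Acp5, -0.031 to 0.084 for Atp6ap2, -0.23 to 0.19 for Atp6v0a1, -0.081 to 0.028 for Atp6v1g1, -0.13 to 0.0037 for Gaa, -0.056 to 0.17 for Hexa, -0.20 to 0.043 for Mcoln1, -0.26 to 0.061 for Naglu, -0.19 to 0.021 for Scarb2 and -0.064 to 0.19 for Tfeb.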
